A study of Mus musculus with 40 samples.

Results

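The genes described here are 10 genes of muscle protein breakdown and autophagy, chosen by name and found in the expression table of each sex: *Trim63*, *Fbxo32*, *Foxo1*, *Foxo3*, *Bnip3*, *Sqstm1*, *Map1lc3a*, *Map1lc3b*, *Gabarapl1* and *Ctsl*. They are 10 of 17646 genes listed for males and 10 of 17223 listed for females, and all 10 passed the filter on low values in both sexes (0.5 or more in 3 or more libraries). The study measured polyA RNA in mouse hearts in which cardiomyocytes were made to express the cytokine *Il11*, with the sexes in separate tables. CM-Il11-Tg mice carried one copy each of the α-MHC-MerCreMer (MCM) transgene, whose Cre is driven by a cardiomyocyte promoter and set free by tamoxifen, and of a *Rosa26-Il11* transgene behind a floxed stop cassette, on a mixed C57BL/6N and C57BL/6J parentage. They received tamoxifen on 5 consecutive days from 8 weeks of age, and hearts were taken at 1, 3 or 6 weeks after induction. Controls were age-matched littermates that carried MCM but not *Rosa26-Il11* and also received tamoxifen, so the Cre and the drug were shared by the controls and the induced hearts. Uninduced hearts came from CM-Il11-Tg mice without tamoxifen, in which Cre was present and the drug was not. The labels place control and uninduced hearts at baseline and give no week or age for them. Each group held 4 libraries, except male controls and male 6-week hearts with 3 each, because 2 male libraries carried labels that named both of these groups and were left out.

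The labels name heart, and the study describes the sequenced tissue as left ventricular. The 8 fixed cardiomyocyte markers were all listed in both sexes, whereas of 7 skeletal muscle markers 3 were listed, at summed levels of at most 8.99. *Il11* lay between 0 and 0.166 in controls, between 15.5 and 49.1 in uninduced hearts and between 328 and 819 at 1 to 6 weeks, so each group had the *Il11* level its label implies, with expression of the transgene above control in uninduced hearts. Levels are in the CPM values that the authors deposited (reads divided by 1 scaling factor per library), and the libraries hold 16663513 to 65333832 reads on the listed genes in males and 19147947 to 30929192 in females. Of 38 libraries, 5 stood apart from their group, by their distance over all genes or by other signs: the male 1-week replicate 4, in which mitochondrial genes took 7.70% of reads against 17.9% to 19.6% in the others of its group, the uninduced female replicate 3, and the male 6-week replicate 4, the uninduced female replicate 4 and the female 1-week replicate 2, these last with little of the nuclear RNA *Malat1* (371, 236 and 239). *Malat1* was also at 254 to 331 in 3 of 4 female 6-week hearts, against 696 to 1235 in female controls, and atrial markers summed to 161 in 1 female 1-week heart and 812 in 1 female 6-week heart against at most 6.93 in female controls. The part of these in the results was not tested beyond leaving libraries out, and results that a library decides are given with and without it.

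Muscle cells break down protein mainly through the ubiquitin-proteasome route and autophagy. In the former, muscle E3 ligases such as MuRF1, encoded by *Trim63*, and atrogin-1, encoded by *Fbxo32*, mark sarcomeric and other proteins for the proteasome. In autophagy, a membrane coated with lipidated ATG8-family proteins (LC3 and GABARAP proteins, from *Map1lc3a*, *Map1lc3b* and *Gabarapl1*) closes around cargo brought by receptors such as p62 (*Sqstm1*) or BNIP3 and fuses with lysosomes, where cathepsins including cathepsin L (*Ctsl*) degrade it. The forkhead factors FOXO1 and FOXO3, held out of the nucleus by insulin and Akt signalling, are known to switch on genes of both routes in atrophying muscle, and both routes also serve normal protein and organelle turnover in the heart.

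After *Il11* induction the atrophy and autophagy genes did not move as a block. *Ctsl* was higher than in controls at all 3 weeks in females and at 1 and 3 weeks in males. *Foxo3* was lower than in controls at all 3 weeks in females and at 1 week in males. Against uninduced hearts *Foxo3* was not called at any week in either sex. *Bnip3* and *Map1lc3a* were lower at all 3 weeks in females, and *Map1lc3b* was higher at 1 and 6 weeks in males. The ligase genes *Trim63* and *Fbxo32* did not rise at any week in either sex, and *Fbxo32* was lower in females at 1 week. A gene was called when limma, fitted on log2(value + 0.5) across all genes and all groups of that sex, gave a Benjamini-Hochberg adjusted p under 0.05, and fold changes below are differences on that log2 scale, given ± their standard error.

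Against control, 3 of the 10 genes were called in males at 1 week, where 33.5% of all genes tested were called, 1 at 3 weeks (21.3% of all genes) and 1 at 6 weeks (27.1%). In females the counts were 5 (28.4% of all genes), 4 (31.3%) and 4 (42.7%). The share of the 10 genes was above the background in females at 1 week, under it in males at 3 and 6 weeks and near it in the other 3 comparisons. With 10 genes such differences rest on few genes. When a replicate number was left out, the count was 3 to 4 in females at 1 week. It was then 0 to 1 and 0 to 2 in males at 3 and 6 weeks. None of the 10 genes was called with a change of at least 2-fold. Over all genes, 8.07%, 6.75% and 8.5% were so called in males and 7.35%, 8.04% and 11.7% in females at 1, 3 and 6 weeks. Of 10 genes, few or none would pass at such shares. By an unadjusted p under 0.05, 5, 4 and 3 genes passed in males and 5, 6 and 4 in females, beside 43.1%, 32.6% and 38.6% of all genes in males and 39%, 41.1% and 50.7% in females. The median log2 fold change of the 10 genes was -0.04, -0.13 and -0.05 in males and -0.18, -0.22 and -0.04 in females, beside medians over all genes between -0.02 and 0.02. The 3 weeks share 1 set of control libraries in each sex, and the sexes were scaled in separate tables, so no test was made between sexes.

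**Figure D1:**
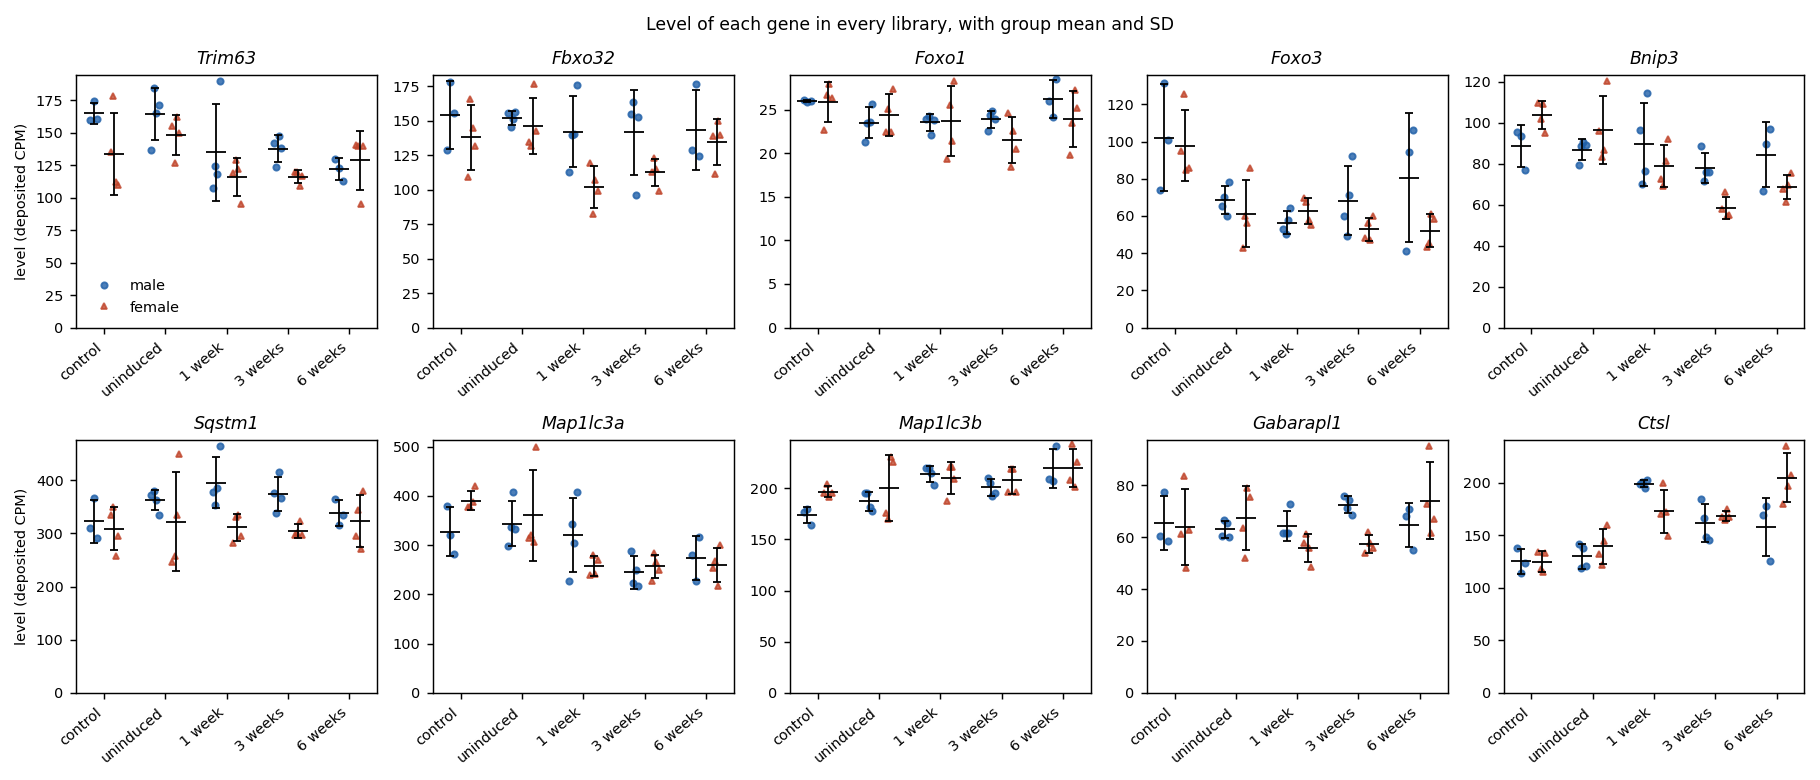
Level of each of the 10 genes (y axis, deposited CPM, from 0) in every placed library, by group (x axis), with circles for males, triangles for females and black bars for the group mean and SD. *Ctsl* in females lay at 115 to 134 in controls and 149 to 235 after induction, and *Map1lc3a* in females at 377 to 420.0 and 218 to 299.6.

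**Figure D2:**
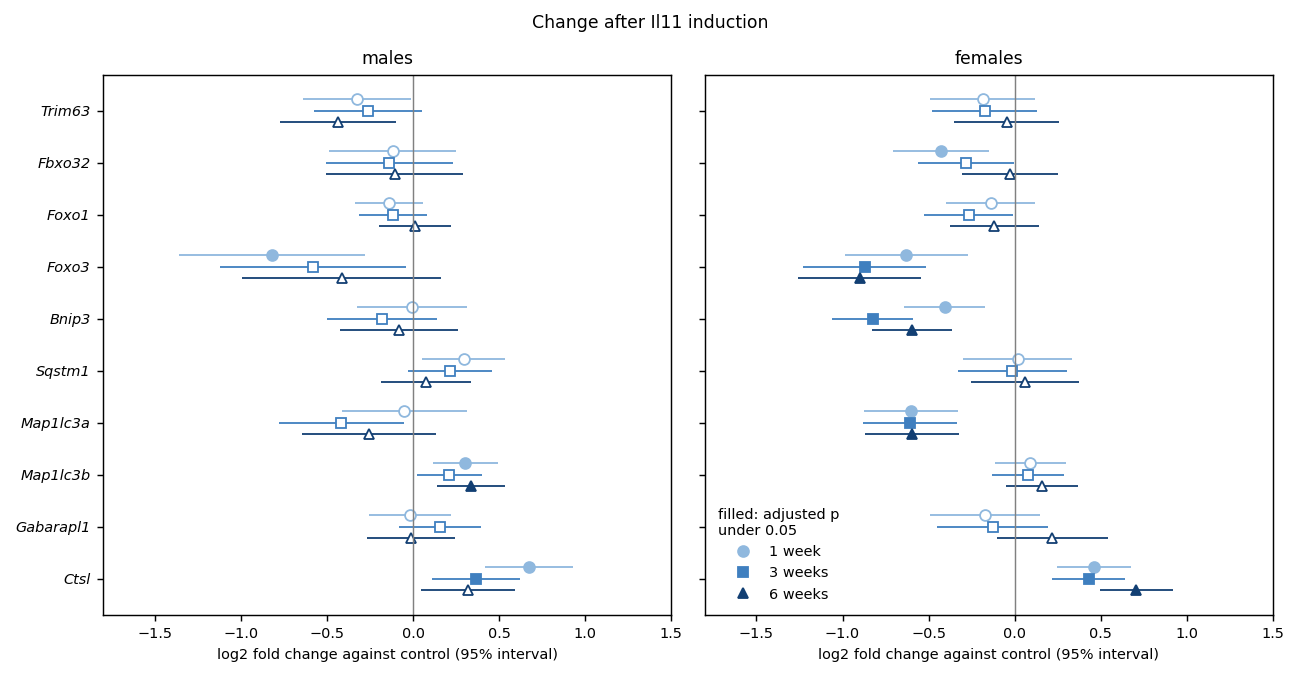
Log2 fold change against control (x axis) with its 95% interval for each gene (y axis) at 1, 3 and 6 weeks, males left and females right, filled where the adjusted p was under 0.05. *Foxo3* reached -0.90 and *Ctsl* 0.71 in females at 6 weeks, and all values of *Trim63* and *Fbxo32* lay below 0, of which 1 passed.

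Of the forkhead factors, *Foxo3* (GRCm39, chr10:42057837-42154007) was the most reduced of the 10 genes in 5 of the 6 comparisons with control, that of males at 6 weeks being the exception. In females its level was 95.1, 126, 84.7 and 85.6 in the 4 control hearts, 69.5, 67.4, 57.8 and 55.3 at 1 week, 48.1, 56.4, 46.9 and 59.7 at 3 weeks and 43.1, 45.7, 61.1 and 58.3 at 6 weeks. All 12 induced female hearts lay below all 4 controls. The log2 fold change was -0.63 ± 0.17, -0.87 ± 0.17 and -0.90 ± 0.17 in week order (limma, adjusted p = 0.00875, 0.000557 and 0.000301). Males had 73.9, 132 and 101 in controls, 53.2, 50.4, 57.8 and 64.2 at 1 week, 59.9, 49.0, 71.3 and 92.4 at 3 weeks and 40.9, 94.7 and 106 at 6 weeks. The 1-week male hearts all lay below controls, with a log2 fold change of -0.82 ± 0.26 (limma, adjusted p = 0.02), whereas the later weeks overlapped controls and did not pass with -0.58 and -0.42 (adjusted p = 0.123 and 0.283). Without the male 6-week replicate 4, one of the libraries that stood apart, the 6-week value was -0.67 and did not pass either (adjusted p = 0.0947). The male 1-week call was lost when replicate 2 or replicate 3 was left out of every group (limma, adjusted p = 0.0562 and 0.192), and without replicate 1 the 3-week value of -0.74 passed (adjusted p = 0.0315). Without the male 1-week heart with few mitochondrial reads the 1-week value was -0.88 (adjusted p = 0.0224). Uninduced hearts had *Foxo3* at a mean of 61.2 in females and 68.5 in males. Against them the log2 fold changes in week order were 0.07, -0.17 and -0.20 in females. In males they were -0.28, -0.04 and 0.12, and none of these values was called in either sex.

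*Foxo1* (chr3:52175757-52260642), the other forkhead factor, was measured at 25.8 to 26.1 in male controls and 22.1 to 28.5 in induced males, and at 22.6 to 27.97 and 18.4 to 28.3 in females. All male 1-week and 3-week hearts lay below the 3 closely spaced controls, and the other groups overlapped. Its log2 fold changes lay between -0.27 and 0.01, and 0 of 6 passed. The nearest to the threshold was the female 3-week value of -0.27 ± 0.12 (limma, adjusted p = 0.111), which passed without replicate 1 (adjusted p = 0.0329). Within a library, the log2 ratio of *Foxo1* to *Foxo3* differed from control by 0.68, 0.46 and 0.43 in males and by 0.49, 0.60 and 0.78 in females at 1, 3 and 6 weeks (exact two-sided permutation p = 0.0286, 0.2 and 0.6 in males and 0.0857, 0.0571 and 0.0286 in females). The p of 0.0286 is the smallest those group sizes allow, with a Benjamini-Hochberg value of 0.0857 over the 18 ratio tests made, which did not pass.

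The letters around the start sites show which of these genes hold a forkhead sequence in the 300 bases before the start of their Ensembl canonical transcript, read from the GRCm39 genome with the GENCODE annotation. The forkhead letters GTAAACA, searched on both strands, were found in 2 of 10 windows, those of *Trim63* and *Foxo1*, and in 3.43% of 21757 windows of protein-coding genes. Below are the windows of both, and that of *Fbxo32*, the partner of *Trim63* among muscle ligases, in which the letters do not occur. All 3 lie outside annotated exons, run 5′ to 3′ on the gene's strand and have the match in capitals. The *Trim63* window is chr4:134042093-134042392 (plus strand), that of *Foxo1* chr3:52175457-52175756 (plus strand) and that of *Fbxo32* chr15:58078742-58079041 (minus strand).
Trim63: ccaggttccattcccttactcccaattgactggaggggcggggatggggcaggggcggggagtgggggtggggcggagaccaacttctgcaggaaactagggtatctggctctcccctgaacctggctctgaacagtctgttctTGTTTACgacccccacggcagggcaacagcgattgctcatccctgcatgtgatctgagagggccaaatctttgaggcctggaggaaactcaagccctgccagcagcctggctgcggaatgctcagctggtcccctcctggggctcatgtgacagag
Foxo1: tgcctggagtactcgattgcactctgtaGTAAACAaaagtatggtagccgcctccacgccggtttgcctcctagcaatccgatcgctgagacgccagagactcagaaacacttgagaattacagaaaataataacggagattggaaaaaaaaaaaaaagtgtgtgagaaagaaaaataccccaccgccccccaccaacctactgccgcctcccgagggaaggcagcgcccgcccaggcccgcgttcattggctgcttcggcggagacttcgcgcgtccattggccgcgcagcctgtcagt
Fbxo32: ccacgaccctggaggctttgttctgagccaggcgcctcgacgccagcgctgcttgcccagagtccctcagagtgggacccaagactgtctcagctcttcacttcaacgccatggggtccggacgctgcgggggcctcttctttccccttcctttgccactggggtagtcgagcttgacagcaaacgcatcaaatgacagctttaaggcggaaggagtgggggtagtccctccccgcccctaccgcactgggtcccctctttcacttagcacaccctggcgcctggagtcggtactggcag
The match begins 156 bases before the start of *Trim63*, on the reverse strand, and 272 bases before that of *Foxo1*. Of other letters searched on both strands, the lysosomal CLEAR core TCACGTGA was in 0 of 10 windows (0.827% of all), the E-box CACGTG, which the CLEAR core contains, in that of *Bnip3* (6.95% of all), and the STAT letters TTCNNNGAA in that of *Gabarapl1* (9.2% of all). The *Gabarapl1* window has all 300 of its bases in annotated exons, and that of *Bnip3* has 57. *Trim63* and *Foxo1* were called in 0 of their 12 comparisons of an induced group with control, where 21.3% to 42.7% of all genes were called. Some of their values passed under an alternative, as given with each gene.

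*Trim63* (chr4:134042393-134056948) is the gene of MuRF1, a ligase bound to the sarcomere. In males it was measured at 159, 175 and 161 in controls, 107, 124, 118 and 190.0 at 1 week, 142, 124, 147 and 138 at 3 weeks and 129.6, 123.01 and 113 at 6 weeks. All 3-week and 6-week male hearts lay below all male controls, and 3 of 4 did so at 1 week. The log2 fold changes of -0.33, -0.26 and -0.44 did not pass (limma, adjusted p = 0.103, 0.248 and 0.0501). The 1-week heart above the rest was replicate 4, the library with few mitochondrial reads, and without it the 1-week value was -0.50 and passed (adjusted p = 0.00251). At 6 weeks the value sat at the threshold, and passed with median-of-ratios scaling, TMM scaling, a stricter filter or DESeq2 on recovered reads (adjusted p = 0.0348 to 0.0495). Without the male 6-week replicate 4 alone, a library that stood apart, it was -0.38 and did not pass (limma, adjusted p = 0.121). With replicate 4 left out of every group it was -0.40 and passed (adjusted p = 0.0479). In females, *Trim63* lay at 135, 178, 112 and 109 in controls and at 94.8 to 141 in induced hearts, with log2 fold changes of -0.18, -0.17 and -0.05. The female groups overlapped at each week, and the 95% intervals reached no higher than 0.26.

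*Fbxo32* (chr15:58039275-58078741), which encodes the F-box protein atrogin-1, was measured at 109, 166, 145 and 131 in female controls, 119, 82.5, 107 and 99.3 at 1 week, 113, 122.85, 115 and 98.8 at 3 weeks and 139, 111, 149 and 139 at 6 weeks. It was lower at 1 week, by a log2 fold change of -0.43 ± 0.13 (limma, adjusted p = 0.0204), with overlapping groups, and the later values of -0.28 and -0.03 did not pass. The 1-week call was lost when replicate 2, 3 or 4 was left out of every group, with a log2 fold change of -0.24 without replicate 2 (limma, adjusted p = 0.241, 0.057 and 0.08). The lowest 1-week heart was replicate 2, which stood apart from its group, and without that library alone the value was -0.33 and did not pass (adjusted p = 0.0866). In males it lay at 128, 178 and 155 in controls and 95.7 to 177 in induced hearts. Those groups overlapped at every week, and the 95% intervals of the log2 fold change ran from -0.51 to 0.29. The log2 ratio of *Fbxo32* to *Trim63* within a library did not pass in any of 6 comparisons (exact permutation p between 0.2 and 0.914, two-sided).

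*Bnip3* (chr7:138490690-138511253) encodes a mitochondrial outer membrane protein that binds ATG8 proteins and marks mitochondria for autophagy. In females its level was 109.8, 102, 109 and 95.2 in controls, 72.6, 68.9, 81.2 and 92.0 at 1 week, 57.8, 66.4, 54.7 and 55.2 at 3 weeks and 67.5, 61.5, 69.7 and 75.7 at 6 weeks. Every induced female heart lay below every control. The log2 fold change was -0.41 ± 0.11, -0.82 ± 0.11 and -0.60 ± 0.11 (limma, adjusted p = 0.0098, 9.14e-06 and 0.000271), and the 1-week call was lost without replicate 1 or without replicate 2 (adjusted p = 0.0993 and 0.0771). Males had 95.3, 93.7 and 77.1 in controls and 66.6 to 115 in induced hearts, which overlapped at each week, with log2 fold changes of -0.01, -0.18 and -0.08 that did not pass. The unprocessed pseudogene *Gm6532* is 98.6% identical to *Bnip3* over 559 bases, was listed at a mean of 13.0 in males and 13.1 in females, and had log2 fold changes of -0.43, -0.87 and -0.65 in females and 0.13, -0.03 and -0.10 in males. Reads of *Bnip3* that fell on such a copy cannot be told from reads of the copy.

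*Sqstm1* (chr11:50089572-50107684), the gene of the cargo receptor p62, was called in 0 of 6 comparisons with control. Its level was 291 to 367 in male controls against 317 to 464 in induced males, and 258 to 349 against 271 to 380.2 in females. The largest value was the log2 fold change of 0.29 ± 0.12 in males at 1 week (limma, adjusted p = 0.0577). Female values lay between -0.01 and 0.06, with 95% intervals from -0.33 to 0.38. *Sqstm1* overlaps the protein-coding genes *Mrnip* and *Mgat4b* on the opposite strand, and whether counting used strand is not given in the sources used here.

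Of the ATG8 genes, *Map1lc3a* was lower in females and *Map1lc3b* higher in males. *Map1lc3a* (chr2:155118217-155119998), the gene of LC3A, was measured in females at 377, 378, 387 and 420.0 in controls, 240.2, 280.1, 241 and 270.2 at 1 week, 227, 284, 267 and 250.1 at 3 weeks and 254, 268, 218 and 299.6 at 6 weeks. The lowest female control lay above the highest induced female heart. The log2 fold change was -0.60 ± 0.13, -0.61 ± 0.13 and -0.60 ± 0.13 (limma, adjusted p = 0.00161, 0.00132 and 0.00114), of much the same size at the 3 weeks. In males the levels were 380.4, 320.0 and 282 in controls, 227, 343, 304 and 407 at 1 week, 289, 222, 250.4 and 217 at 3 weeks and 279, 228 and 317 at 6 weeks. The male groups overlapped and the log2 fold changes of -0.05, -0.42 and -0.26 did not pass, although the 3-week value passed when only the 2 groups compared were fitted (limma, adjusted p = 0.0366).

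*Map1lc3b* (chr8:122317100-122325499), the gene of LC3B, was measured in males at 177, 179 and 165 in controls, 220.2, 219.5, 215 and 203 at 1 week, 209.9, 206, 192 and 196 at 3 weeks and 209.6, 208 and 242 at 6 weeks. All 11 induced male hearts lay above all 3 controls. The log2 fold change was 0.30 ± 0.09 at 1 week and 0.34 ± 0.10 at 6 weeks (limma, adjusted p = 0.0132 and 0.013), and 0.21 ± 0.09 at 3 weeks, which did not pass (adjusted p = 0.103). Both calls were lost when some replicate numbers were left out of every group, at 1 week without 1, 2 or 3 (limma, adjusted p = 0.0546 to 0.0974) and at 6 weeks without 1, 3 or 4 (0.0526 to 0.0941), where the value without replicate 4 was 0.23. At 6 weeks the call was also lost when only the 2 groups compared were fitted (adjusted p = 0.132). In females the levels were 195, 204, 192 and 195 in controls and 188 to 244 in induced hearts, with log2 fold changes of 0.09, 0.08 and 0.16 that did not pass. Among listed copies, the processed pseudogene *Gm6055*, picked here for being 99.6% identical over 282 bases, had a mean of 46.4 in males and 45.6 in females and log2 fold changes of 0.06, 0.19 and 0.02 in males and 0.24, 0.17 and 0.31 in females, the last of which passed (limma, adjusted p = 0.0459). *Map1lc3b* also overlaps *Zcchc14* on the opposite strand.

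Taken within each library, the level of *Map1lc3a* relative to *Map1lc3b* does not depend on the scaling of the libraries. In females the ratio was 1.93, 1.85, 2.02 and 2.15 in controls, 1.28, 1.27, 1.09 and 1.29 at 1 week, 1.16, 1.29, 1.22 and 1.28 at 3 weeks and 1.22, 1.10, 1.08 and 1.32 at 6 weeks. In males it was 2.15, 1.78 and 1.72 in controls, 1.03, 1.56, 1.41 and 2.01 at 1 week, 1.37, 1.08, 1.30 and 1.11 at 3 weeks and 1.33, 1.10 and 1.31 at 6 weeks. Induced and control hearts did not overlap in females at any week, nor in males at 3 and 6 weeks, while at 1 week the male heart with few mitochondrial reads had the highest ratio of its group. The mean log2 ratio differed from control by -0.69, -0.69 and -0.75 in females and by -0.36, -0.63 and -0.59 in males at 1, 3 and 6 weeks. The exact two-sided permutation p was 0.0286 at each week in females and at 3 weeks in males, and 0.1 in males at 6 weeks, in each case the smallest that the group sizes allow, and 0.229 in males at 1 week. After Benjamini-Hochberg adjustment over the 18 ratio tests, 0 passed, the smallest value being 0.0857.

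**Figure D3:**
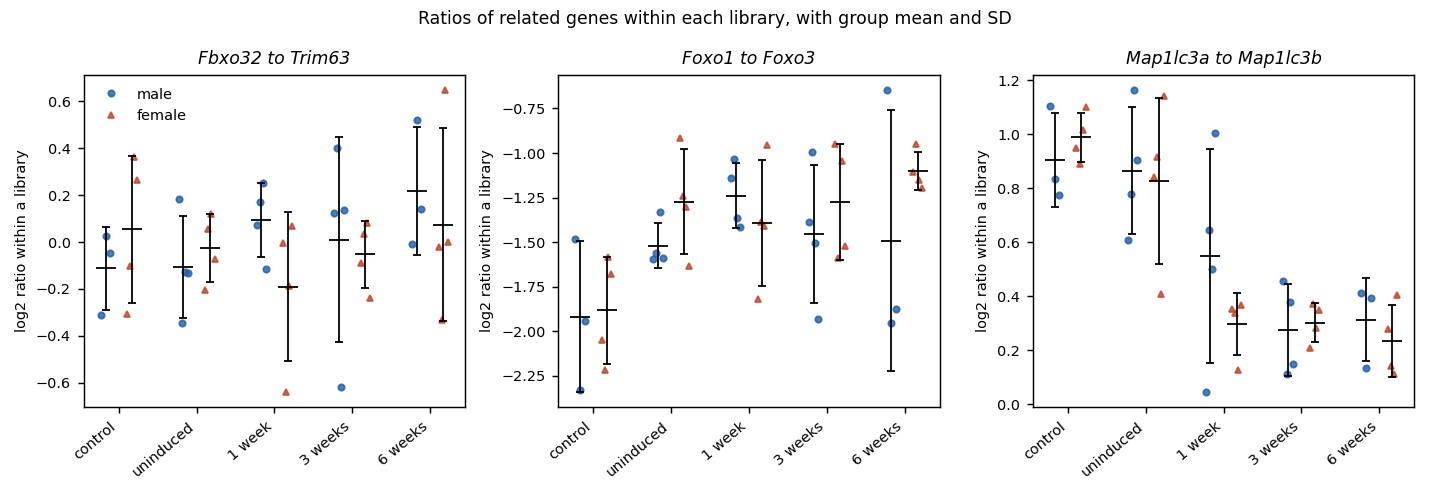
Log2 ratio of 2 related genes within each library (y axis) by group (x axis), with circles for males, triangles for females and black bars for the group mean and SD. For *Map1lc3a* to *Map1lc3b*, the group mean was 0.99 in female controls and 0.23 at 6 weeks, and 0.90 and 0.31 in males.

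*Gabarapl1* (chr6:129509725-129520544), a GABARAP-type member of the same family, passed in 0 of 6 comparisons with control. Its levels were 58.5 to 77.5 in male controls and 55.2 to 75.8 in induced males, and 48.1 to 83.7 and 48.4 to 95.2 in females. Log2 fold changes lay between -0.17 in females at 1 week and 0.22 in females at 6 weeks.

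Beside the lower *Map1lc3a* and *Bnip3*, cardiomyocyte marker sums tended lower in induced libraries, with overlap in females. The summed level of the 8 cardiomyocyte markers ranged over 45980.3 to 62827 in female controls and 39026 to 52672 in induced females. In males it ranged over 63416 to 72389.7 and 39543 to 62369. At 6 weeks the calls in this list were *Ryr2*, lower in both sexes, and *Myl2* and *Pln*, lower in females. *Tnnt2* had positive log2 fold changes (0.04 in males and 0.41 in females) that did not pass. The share of reads on mitochondrial genes was 28.7% to 31.7% in female controls and 15.8% to 24.1% in induced females. In males it was 25.85% to 28.5% in controls and 7.70% to 26.5% in induced hearts, which overlapped. Uninduced hearts had 24.0% to 27.6% in females and 17.2% to 24.0% in males, also below the controls of their sex. The 6 endothelial markers, all listed, summed to 833 to 953 in female controls and 506 to 746 in induced females. In males they summed to 920.4 to 1041 and 569 to 817. Induced and control hearts did not overlap in either sex, and uninduced hearts had 743 to 902 in females and 683 to 856 in males. Singly, at 6 weeks, *Cdh5*, *Kdr* and *Tie1* were called lower in both sexes and *Flt1* in females only. *Pecam1* (-0.20 in males and -0.14 in females) and *Emcn* (0.20 and 0.14) were not called. The part of these marker and mitochondrial levels in the lower values of *Map1lc3a*, *Bnip3*, *Foxo3*, *Fbxo32* and the gene lists described further on was not tested. In bulk tissue, fewer cells of a type and less RNA per cell cannot be told apart.

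*Ctsl* (chr13:64507151-64518704), the gene of the lysosomal protease cathepsin L, was the one member higher in both sexes. In females its level was 134, 118, 115 and 133 in controls, 170.4, 199, 172 and 149 at 1 week, 167, 164, 174 and 167 at 3 weeks and 179.8, 235, 197 and 207 at 6 weeks. Every induced female heart lay above every control. The log2 fold change was 0.46 ± 0.10, 0.43 ± 0.10 and 0.71 ± 0.10 (limma, adjusted p = 0.00179, 0.00291 and 1.37e-05). In males the levels were 137, 114 and 124 in controls, 199, 200.2, 194 and 202 at 1 week, 184, 167, 149 and 145 at 3 weeks and 169, 177 and 126 at 6 weeks. Males at 1 and 3 weeks lay wholly above controls, with log2 fold changes of 0.67 ± 0.12 and 0.36 ± 0.12 (limma, adjusted p = 0.000334 and 0.0384). At 6 weeks the value of 0.32 ± 0.13 did not pass (adjusted p = 0.0764). The low male 6-week heart was replicate 4, a library that stood apart, and without it the value was 0.47 and passed (limma, adjusted p = 0.00546). The male 3-week call was lost with median-of-ratios scaling (adjusted p = 0.0503) and without replicate 1, 2 or 3 (0.115, 0.116 and 0.22).

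Macrophage marker RNA was higher in the same libraries. The summed level of the 8 macrophage markers, all 8 of them listed, was 188 to 246 in female controls, 355 to 476 in uninduced and 893 to 1188 in induced females, and 206 to 335, 299.8 to 431 and 765 to 1207 in males. The 8 fibroblast markers summed to 847 to 1148 in female controls and 4874 to 12154 in induced females. In males they summed to 720.1 to 1152 and 4673 to 10099.6. Single markers of this list changed unevenly, so the sum need not follow the number of fibroblasts. At 6 weeks in males, log2 fold changes were 3.72 for the collagen gene *Col3a1*, 0.58 for *Tcf21* and 0.31 for *Pdgfra*. In females they were 4.08, 0.28 and 0.85. *Pdgfra* in males and *Tcf21* in females did not pass (limma, adjusted p = 0.163 and 0.127). Macrophages are rich in lysosomal proteases, and the part of these cells in the level of *Ctsl* was not tested.

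Uninduced hearts, which carry the transgenes but had no tamoxifen, differed from controls in 1 of the 10 genes, *Foxo3*, and in females only by this test. In uninduced females *Foxo3* was 42.7, 60.0, 56.2 and 85.9, against 95.1, 126, 84.7 and 85.6 in controls, a log2 fold change of -0.70 ± 0.17 (limma, adjusted p = 0.0276). The groups overlapped through uninduced replicate 4, a library that stood apart, and without it the value was -0.87 (adjusted p = 0.00269), but without uninduced replicate 3, also apart, it was -0.67 and did not pass (0.0849). The call was lost without replicate 1, 2 or 3 and when only the 2 groups were fitted (adjusted p = 0.113 to 0.277), with a value of -0.41 without replicate 2. In females 1 of 10 genes was called in this comparison, and 2.87% of all genes were, with 15.4% at an unadjusted p under 0.05. Uninduced males had 65.2, 70.4, 60.2 and 78.0, with a log2 fold change of -0.54 ± 0.26 that did not pass (adjusted p = 0.473). In males 0 of 10 were called by limma, 1 had an unadjusted p under 0.05 (10.6% of all genes), and 0.597% of all genes were called. The uninduced hearts differ from controls both in the *Rosa26-Il11* transgene and in tamoxifen, which cannot be told apart.

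Against uninduced hearts, which share the genotype, the calls were fewer, or at 3 weeks in males as many. In females these were *Fbxo32* (-0.52 ± 0.13) and *Map1lc3a* (-0.45 ± 0.13) at 1 week, *Bnip3* (-0.71 ± 0.11) and *Map1lc3a* (-0.46 ± 0.13) at 3 weeks, and *Bnip3* (-0.48 ± 0.11), *Map1lc3a* (-0.45 ± 0.13) and *Ctsl* (0.55 ± 0.10) at 6 weeks. The share of all genes called was 12.6%, 16.7% and 22.8%. The uninduced females had *Map1lc3a* at 315, 322, 306 and 499.7, and without the high replicate 4 its changes were smaller and did not pass at 1 and 3 weeks (-0.29 and -0.29, limma, adjusted p = 0.0721 and 0.0599). With only the 2 groups fitted, the *Map1lc3a* calls at 1, 3 and 6 weeks were all lost (limma, adjusted p = 0.126, 0.0939 and 0.126). They were also lost with replicate 1 left out of every group (0.111, 0.104 and 0.0592). The 1-week call was lost without replicate 2 or 4 (0.0591 and 0.0904), and the 3-week call without replicate 4 (0.115). The *Fbxo32* call was lost without replicate 3 or 4 (adjusted p = 0.0654 and 0.0832) and without the female 1-week replicate 2 alone (0.0555). *Foxo3* was not called against uninduced hearts at any week in either sex. In males *Ctsl* was higher at 1 week (0.62 ± 0.11, limma, adjusted p = 0.000692), *Map1lc3a* was lower at 3 weeks (-0.49 ± 0.16, adjusted p = 0.0428), a call lost with the replicate number as a block (adjusted p = 0.0689) and without replicate 2, 3 or 4 (0.195, 0.248 and 0.0755), and 0 genes were called at 6 weeks, where 3 had an unadjusted p under 0.05 (33.5% of all genes) and DESeq2 called 2. The share of all genes called in males was 18.8%, 16.1% and 20.4%.

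No change between weeks after tamoxifen passed the test. For 3 against 1, 6 against 1 and 6 against 3 weeks, limma, edgeR and DESeq2 each called 0 of the 10 genes in either sex, with 2, 1 and 0 genes at an unadjusted p under 0.05 in males and 1, 3 and 2 in females, beside 16%, 15.4% and 6.33% of all genes in males and 10%, 12.6% and 15.2% in females. Of all genes, limma called 0.0177%, 0.165% and 0% in males and 0.218%, 1.03% and 0% in females. The largest differences between weeks were as large as some that passed against control. In females *Bnip3* was -0.42 ± 0.11 at 3 against 1 week, with no overlap (limma, adjusted p = 0.184), and *Fbxo32* and *Gabarapl1* were 0.40 ± 0.13 and 0.39 ± 0.15 at 6 against 1 week (adjusted p = 0.194 and 0.296). In males *Foxo3* was 0.40 ± 0.26 at 6 against 1 week and *Map1lc3a* -0.37 ± 0.16 at 3 against 1 week (limma, adjusted p = 0.457 and 0.278). Both overlapped. Male *Ctsl* was -0.35 ± 0.12 at 6 against 1 week, without overlap (adjusted p = 0.212). In order of group mean, female *Ctsl* ran from control (125 ± 9.89, SD, n = 4) through uninduced (139.5 ± 16.7), 3 weeks (168 ± 4.45) and 1 week (173 ± 20.7) to 6 weeks (205 ± 22.9). No neighbours in that order differed by the test. Each induced group differed from control, and 6 weeks differed from uninduced. Female *Map1lc3a* ran the opposite way, from control (391 ± 20.1) and uninduced (361 ± 93.0) to 6 weeks (259.8 ± 33.97), 1 week (258 ± 20.3) and 3 weeks (257 ± 24.1). All 3 induced groups were called lower than control and lower than uninduced, and none was called against another. The calls against uninduced were lost in the settings given above.

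Many lysosomal genes were higher after induction. Of 39 lysosomal genes (proteases, glycosidases, membrane proteins, proton pump subunits and the factors *Tfeb*, *Tfe3* and *Mitf*), all tested, 23, 23 and 24 were higher and 2, 1 and 1 lower than in controls in males at 1, 3 and 6 weeks, and 28, 23 and 29 were higher and 2, 1 and 3 lower in females. Over all genes, 18.9%, 13.2% and 16.2% were called higher in males and 15.3%, 16.8% and 21.7% in females. The median log2 fold change of the list was 0.55, 0.53 and 0.46 in males and 0.51, 0.48 and 0.62 in females, against medians near 0 over all genes. In both sexes and at all 3 weeks, 19 lysosomal genes were called higher and 0 lower. Those with the largest mean changes were *Ctss* (cathepsin S, of antigen-presenting cells), with 2.25, 2.33 and 2.29 in males and 2.57, 2.83 and 3.30 in females, *Ctsk* (cathepsin K, a collagen-degrading protease), with 2.90, 2.47 and 2.69 and 2.28, 2.37 and 2.79, and *Lgmn* (legumain, an asparaginyl endopeptidase), with 1.71, 1.56 and 1.57 and 1.62, 1.53 and 1.74 (limma, adjusted p at most 1.85e-06). *Ctsl* changed less than these. The macrophage and fibroblast marker sums given above moved in the same libraries, and their part in the lysosomal list was not tested.

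Few genes upstream of the lysosome were higher. Of 30 genes of autophagy initiation and conjugation, 3, 0 and 1 were higher and 6, 2 and 0 lower in males at 1, 3 and 6 weeks, and 1, 0 and 1 higher and 6, 5 and 8 lower in females, and 0 were called in 1 direction at all weeks in both sexes. Over all genes, 14.6%, 8.1% and 10.9% were called lower in males and 13.1%, 14.5% and 21% in females. The share of this list called lower was somewhat above that in males at 1 week and in females at each week. In males at 3 and 6 weeks it was under it. Without replicate 3 the male 1-week count of called genes of this list, 9 with all replicates, was 1. Of 20 further autophagy receptors and mitophagy genes, 3, 1 and 1 were higher and 6, 5 and 6 lower in males, and 1, 1 and 1 higher and 5, 6 and 6 lower in females. *Stbd1*, which tethers glycogen for autophagy, was higher throughout (1.18, 1.18 and 1.18 in males, 0.93, 1.08 and 1.16 in females), and *Retreg1*, a receptor for autophagy of the endoplasmic reticulum, was lower throughout (-0.88, -0.83 and -0.68 and -0.67, -0.89 and -0.81, limma, adjusted p at most 0.0153). The median log2 fold changes of these 2 lists lay between -0.20 and -0.07.

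On the ubiquitin side, of 19 other ligase genes linked to atrophy, 0, 0 and 0 were higher and 6, 3 and 5 lower in males, and 1, 0 and 1 higher and 3, 5 and 5 lower in females, where the shares of all genes called lower are those given above. Without replicate 3, the male counts called were 2 at 1 week and 0 at 3 weeks. *Asb2*, a muscle ligase subunit that targets filamins, was lower at each week (-1.03, -0.90 and -0.69 in males and -0.81, -0.84 and -1.02 in females, limma, adjusted p at most 0.0421), as was *Ubr2*, an N-end rule ligase (-1.10, -0.65 and -0.84 and -0.72, -0.77 and -0.94, adjusted p at most 0.00213). Of 31 proteasome subunit genes, 5, 0 and 0 were higher and 0, 0 and 3 lower in males, and 0, 0 and 0 higher and 7, 2 and 2 lower in females. Of 27 listed genes of FoxO regulation and known FoxO targets (*Mstn* was not listed), 1, 0 and 1 were higher and 7, 4 and 6 lower in males, and 1, 0 and 1 higher and 10, 13 and 10 lower in females, with medians of -0.29, -0.23 and -0.32 and -0.37, -0.40 and -0.27. The FoxO counts against control depended on single replicates. In males at 1 week they fell from 8 called to 2 without replicate 3. In females at 1 week they fell from 11 to 5 without replicate 2. The female 1-week proteasome count fell from 7 to 1 without replicate 1. Against uninduced hearts fewer FoxO genes were called. There 0, 0 and 1 were higher and 1, 1 and 2 lower in males. In females 1, 0 and 1 were higher and 1, 5 and 1 lower. The shares of all genes called are those given above for that comparison. In uninduced hearts against control the median of the FoxO list was -0.18 in males and -0.13 in females. *Irs1*, an insulin signalling adaptor upstream of Akt, was the one FoxO list gene lower than control at all 3 weeks in both sexes. Its log2 fold changes were -1.60, -1.57 and -1.55 in males and -1.03, -1.62 and -1.24 in females (limma, adjusted p at most 0.0391). Its mean level was 14.3 ± 2.55 (SD, n = 3) in male controls and 4.50 ± 0.262 (n = 3) at 6 weeks, and 8.73 ± 2.41 (n = 4) and 3.38 ± 0.825 (n = 4) in females. Uninduced hearts had *Irs1* at 8.40 ± 1.78 (n = 4) in males and 8.78 ± 5.77 (n = 4) in females.

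**Figure D4:**
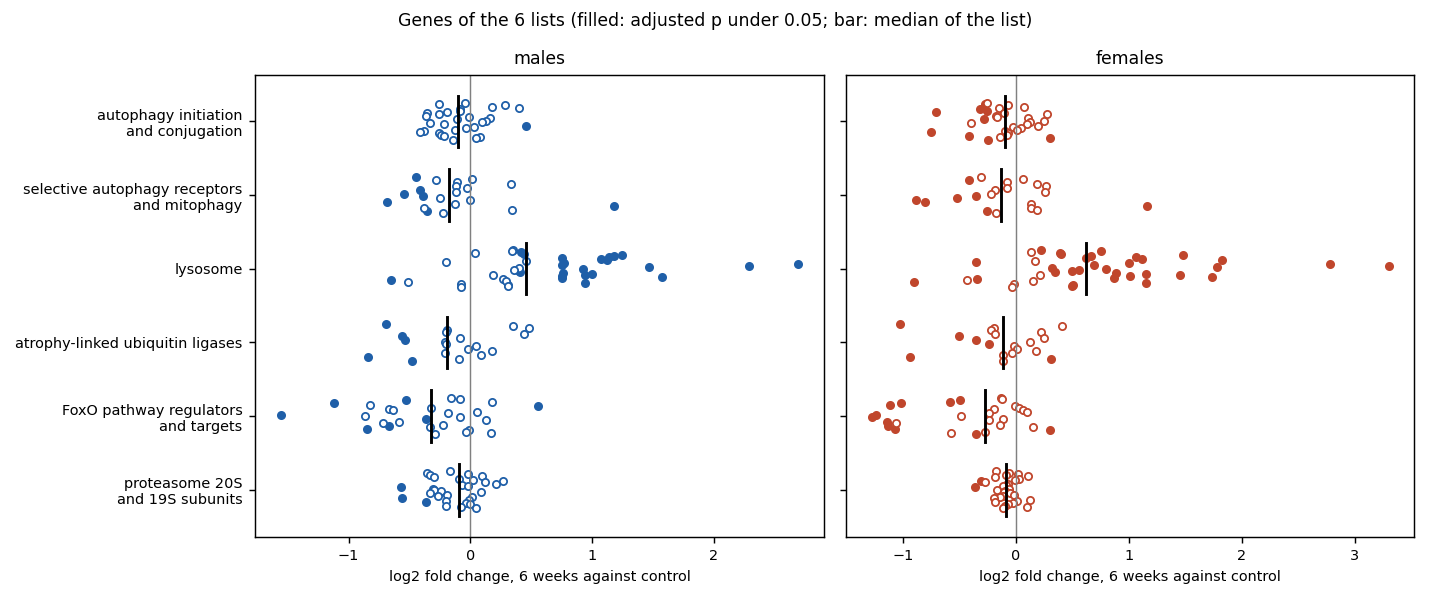
Log2 fold change at 6 weeks against control (x axis) for each gene of the 6 lists (y axis), males left and females right, filled where the adjusted p was under 0.05, with a bar at each list's median. The lysosomal median was 0.46 in males and 0.62 in females, while the other medians lay at or below -0.09.

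The 10 genes did not follow one shared pattern over libraries. By Pearson correlation of log2 values over 18 male and 20 female libraries, which share the scaling of their table and the contrast between groups and are given as a description, *Foxo3* and *Ctsl* ran opposite (r = -0.65 in males and -0.51 in females), and *Map1lc3b* and *Ctsl* together (0.59 and 0.64). *Bnip3* ran with *Map1lc3a* with r = 0.45 in males and 0.81 in females. Among all genes tested, those closest to *Map1lc3a* were *Mdh2* (r = 0.96 and 0.98) and *Atp5d* (r = 0.95 and 0.97), which encode a mitochondrial malate dehydrogenase and a subunit of ATP synthase. *Foxo3* was closest to *Herpud1* (r = 0.92 and 0.88) and *Sesn1* (r = 0.85 and 0.91), the latter a known FoxO target, and *Ctsl* to *Selenof* (r = 0.95 and 0.91) and *Slfn2* (r = 0.93 and 0.91). *Map1lc3b* was closest to the ribosomal protein pseudogene *Rps10-ps2* (r = 0.91 and 0.84) and to *Rplp0* (r = 0.88 and 0.85), a ribosomal protein gene. *Trim63* was closest to *Esrra* (r = 0.88 and 0.74), a nuclear receptor of mitochondrial gene expression, and *Rnf40* (r = 0.84 and 0.76). *Bnip3* was closest to its near-identical copy *Gm6532* (r = 0.84 and 0.98) and to an unnamed gene (ENSMUSG00000115801, r = 0.76 and 0.84). Closest to *Foxo1* were *Emp2* (r = 0.72 and 0.73) and *Atp1b2* (r = 0.66 and 0.78), and closest to *Sqstm1* *Eif3b* (r = 0.80 and 0.68) and *Ncaph2* (r = 0.65 and 0.82). *Fbxo32*, with *Wipi2* (r = 0.67 and 0.61) and *Klhl38* (r = 0.65 and 0.62), and *Gabarapl1*, with *Gm5837* (r = 0.44 and 0.77) and *Slc39a7* (r = 0.58 and 0.61), had the weakest matches.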

How the data were processed

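PolyA RNA of mouse hearts was sequenced in 40 libraries, 38 of which the labels place in a group. The authors aligned reads to GRCm39, counted them per gene with featureCounts and deposited 1 table per sex, named CPM. The deposited values are a signal: reads divided by 1 factor per library, so that columns sum to 817395 to 1196278. Every value was within 0.001 of a whole number of reads once that factor was undone (100% of values), which gives the depth of each library. Strand use in counting is not given in the sources used here. The number of reads limits the precision of low genes, and that of hearts limits all tests; nothing in the labels says more of the replicates than that they are separate samples, so p-values measure the spread between these samples.

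Genes that reached 0.5 in 3 libraries or more (16931 in males, 16956 in females) were tested with limma 3.58.1 in R 4.3.3, on log2(value + 0.5) with a trended prior, all groups of a sex in 1 fit, and Benjamini-Hochberg adjustment over all genes tested. Ratios within a library were compared by exact two-sided permutation. The alternatives were pseudocounts, filters, median-of-ratios and TMM scaling, edgeR 4.0.16 and DESeq2 1.42.0 on the recovered reads, fits of 2 groups only, the replicate number as a block, each replicate left out and, added after seeing the data, each of 5 libraries that stood apart left out alone. Groups share replicate numbers, but same-numbered libraries did not deviate together (mean correlation of residuals 0.0132 in males and 0.0255 in females), so the numbers were not taken as pairs. No 2 replicates agreed within sampling noise. Counts were also simulated for 6 weeks against control, with 100 genes changed at each size. There limma found 82% of 2-fold and 100% of 4-fold changes in males (16931 genes in the run). In females it found 95% and 100% (16956 genes). The simulation gave every gene the same spread and left nearly all genes unchanged, unlike these data. Its shares therefore need not hold for them.

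The 10 genes and the 6 gene lists were chosen with earlier results of these data known. Genes named from a list are up to 3 with the largest mean change among those called in 1 direction at all 3 weeks in both sexes, and genes named for likeness are the 2 with the highest mean correlation. Positions and sequences are from GRCm39 with GENCODE, and near-identical copies were found with blastn 2.17.0.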

Additional observations from a re-analysis of the deposited data

Results flagged for a closer look

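Of 80 groups of 4 libraries tested with Dixon's criterion (95% level), 5 held a value set apart from the other 3, where chance gives about 1 in 20. *Fbxo32* was at 95.67 in replicate 3 of the male 3-week hearts, below the others at 152 to 163. *Gabarapl1* was at 72.84 in replicate 4 of the male 1-week hearts, with the others at 61.5, and that library also had the lowest mitochondrial share, 7.70%. *Trim63* was at 94.97 in replicate 3 of the female 6-week hearts, with the others at 139 to 141. *Sqstm1* was at 323.3 in replicate 3 of the female 3-week hearts, with the others at 297 to 299.9. *Map1lc3a* was at 499.7 in replicate 4 of the uninduced female hearts, with the others at 306 to 322.

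*Gabarapl1* at 3 weeks moved in opposite directions in the sexes against the control mean, by 0.1547 on the log2 scale for males and -0.13 for females. Neither value passed the test, and the difference between the sexes was not tested.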

How the results depend on the processing

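Of the called log2 fold changes of the 10 genes, 378 values under an alternative kept their call, 42 lost it and 0 changed sign. Of those not called, 586 stayed so, 12 passed and 25 changed sign. edgeR on the recovered reads called 3, 1 and 1 of the 10 genes against control in males and 5, 4 and 4 in females at 1, 3 and 6 weeks, the counts that limma gave. The count of called genes moved by over 1.5 times as follows. In males at 3 weeks against control it was 0 with median-of-ratios scaling and 2 when only the 2 groups compared were fitted. At 6 weeks against control it was 2 with the stricter filter, median-of-ratios or TMM scaling or DESeq2, 2 without the male 6-week replicate 4 (chosen after seeing the data) and 0 with only 2 groups. Against uninduced males it was 2 at 1 week without the male 1-week replicate 4 (also chosen later), 2 at 3 weeks with only 2 groups, and at 6 weeks 1 with the stricter filter, median-of-ratios scaling, only 2 groups or without the male 6-week replicate 4, and 2 with DESeq2. In females with only 2 groups it was 0 for uninduced against control and 1 at 1 and 3 weeks against uninduced. Without the uninduced female replicate 3 it was 0 for uninduced against control, and without the female 1-week replicate 2 it was 1 at 1 week against uninduced (both chosen later). With the replicate number as a block, the count for males at 3 weeks against uninduced was 0, and no other count moved so far. Leaving out each replicate number gave, in males, counts of 1 to 4 (1 week), 0 to 1 (3 weeks) and 0 to 2 (6 weeks) against control, and 1 to 2, 0 to 1 and 0 to 1 against uninduced. In females it gave 0 to 1 for uninduced against control, 3 to 4 at 1 week against control, and 1 to 2 at 1 week and 1 to 3 at 3 weeks against uninduced. The log2 fold changes that changed sign were not called before or after. The largest after a change of sign was 0.21, for *Map1lc3a* in males at 1 week without replicate 1. For *Bnip3* in males at 1 week the log2 fold change was 0.0132 with edgeR and 0.0385 with the replicate block. For *Foxo1* in males at 6 weeks it was -0.0024 with median-of-ratios scaling and -0.0510 without the male 6-week replicate 4, and *Gabarapl1* without it was 0.0981. For *Sqstm1* in females at 1 week it was -0.0146 without the female 1-week replicate 2. Leaving out replicates, the ranges in males were -0.23 to 0.10 (*Bnip3*, 1 week), -0.29 to 0.13 (*Bnip3*, 6 weeks), -0.31 to 0.15 (*Fbxo32*, 3 weeks), -0.0513 to 0.0644 (*Foxo1*, 6 weeks), -0.15 to 0.13 and -0.11 to 0.10 (*Gabarapl1*, 1 and 6 weeks), -0.28 to 0.21 (*Map1lc3a*, 1 week) and -0.0042 to 0.22 (*Sqstm1*, 6 weeks). In females they were -0.15 to 0.16 (*Fbxo32*, 6 weeks), -0.10 to 0.10, -0.13 to 0.0559 and -0.0407 to 0.14 (*Sqstm1*, 1, 3 and 6 weeks) and -0.18 to 0.0543 (*Trim63*, 6 weeks). Causes of these shifts were not tested. Over the 6 gene lists, 450 counts under an alternative stayed within 1.5 times and 72 did not. The lysosomal counts of higher genes were among those that stayed, at 20 to 25, 19 to 24 and 20 to 24 in males and 20 to 25, 21 to 23 and 24 to 28 in females when replicates were left out. All 72 were in the other 5 lists, where leaving out replicates gave, at 1, 3 and 6 weeks, 1 to 8, 0 to 5 and 1 to 3 called (autophagy initiation), 4 to 9, 2 to 6 and 3 to 7 (receptors), 2 to 8, 0 to 4 and 3 to 5 (ligases), 2 to 10, 1 to 7 and 4 to 6 (FoxO) and 1 to 6, 0 to 1 and 2 to 3 (proteasome) in males. In females it gave 3 to 7, 2 to 4 and 3 to 7 (autophagy initiation), 2 to 6, 3 to 6 and 3 to 9 (receptors), 1 to 3, 2 to 3 and 3 to 6 (ligases), 5 to 11, 11 to 14 and 6 to 11 (FoxO) and 1 to 7, 1 to 3 and 2 (proteasome). With 3 or 4 hearts a group, changes under 2-fold can be missed.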

Other observations

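In 2 male libraries, which carry labels of both the control and the 6-week group and entered no comparison, the levels were as follows. The first had *Trim63* at 166, *Fbxo32* at 126, *Foxo1* at 25.6, *Foxo3* at 122 and *Bnip3* at 89.2. Its autophagy genes were at 384 for *Sqstm1*, 379 for *Map1lc3a*, 177 for *Map1lc3b* and 72.8 for *Gabarapl1*, and *Ctsl* was at 126. The second had *Trim63* at 97.6, *Fbxo32* at 171, *Foxo1* at 31.4, *Foxo3* at 78.0 and *Bnip3* at 105. Its *Sqstm1* was at 339, *Map1lc3a* at 218, *Map1lc3b* at 216, *Gabarapl1* at 63.3 and *Ctsl* at 123.4.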
